A study of Rattus norvegicus with 4 samples.

Results

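Transcripts of 9 genes that make or remove reactive oxygen species were followed in liver RNA of lean and obese WNIN/Ob rats. They are 5 genes of NADPH oxidase subunits (Nox4, Cybb, Cyba, Ncf1 and Ncf4), the superoxide dismutase genes Sod1, Sod2 and Sod3, and the catalase gene Cat. Each was taken by its symbol in the platform annotation, with the brightest probe set per gene; all 9 were found, each on 1 probe set, among 14506 measured genes. The set was selected on the difference between the lean and obese arrays, with these values known, so the values below describe these arrays and no test is attached to them.

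The series asks how liver expression at baseline differs between phenotypes of the WNIN/Ob strain, which the labels give as lean or obese, with no genotype. Male rats aged 4 months on stock diet and without treatment gave liver RNA, which was combined into 1 lean pool of 4 animals and 1 obese pool of 4 animals. Each pool was measured on 2 Affymetrix arrays, called original and technical replicate. The arrays of a pool share their RNA, so their spread is measurement error and leaves out differences between animals. Levels are log2 of the deposited intensity, and a difference is the obese mean minus the lean mean on that scale. Levels of different genes come from different probes and are not ranked against each other. They are only set against the median of all genes or summed over a list of markers.

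NADPH oxidases carry electrons from NADPH across a membrane to oxygen. In phagocytes, such as the Kupffer cells of the liver, the catalytic subunit encoded by Cybb sits with the Cyba product and becomes active once cytosolic subunits, among them the Ncf1 and Ncf4 products, join it to make superoxide. The Nox4 enzyme also needs the Cyba product but not the cytosolic subunits, is active without a trigger and releases mostly hydrogen peroxide. It is known from kidney, blood vessels, activated stellate cells and muscle, among other cells and tissues. Superoxide dismutases turn superoxide into hydrogen peroxide, and catalase, a haem enzyme of peroxisomes that is abundant in hepatocytes, breaks hydrogen peroxide down to water and oxygen.

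Nox4 was the 1 gene of the 9 that stood far apart between the pools. The 1.5-fold rule used here asked that the pool means differ by that factor, that the nearest arrays of the pools be at least 0.25 apart, and that the higher pool reach the median level of all genes, 5.48. By this rule 1 of the 9 genes was lower in the obese pool and 0 were higher, against 2.43% of all measured genes lower and 2.19% higher. Of the 9 genes, 8 had differences below 0, which 43.1% of all genes had, and the median was -0.19 against 0.03 over all genes. Arrays of the pools did not overlap for 5 of the 9 genes, of which 4 were lower and 1 higher in the obese pool; 46.0% of all genes did not overlap. With each array centred on its median, 7 of the 9 differences were below 0, and with cyclic loess 8 genes did not overlap, beside 48.3% of all genes. These counts rest on few genes and on the contrast that chose them.

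**Figure D1:**
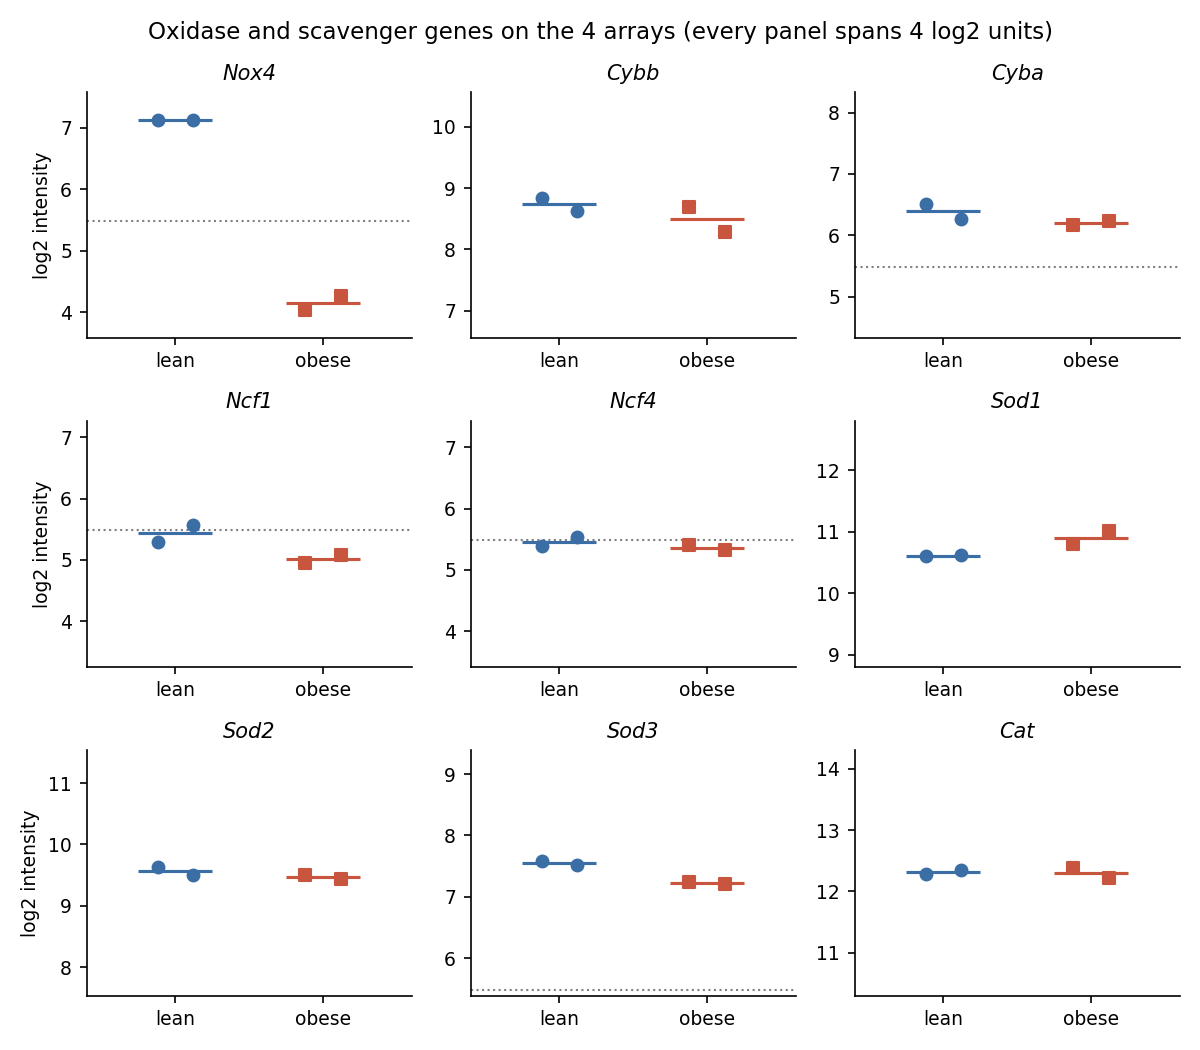
Log2 intensity of each of the 9 genes on the lean arrays (blue circles) and the obese arrays (red squares), with lines at the pool means and a dotted line at the median level of all genes, 5.48. Every panel spans the same range, so the gap of Nox4, from 7.13 to 4.15, can be set against the smaller gaps of the other genes.

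Nox4 stood at 7.13 on both lean arrays, and at 4.04 on the obese original and 4.26 on the obese technical replicate array. On the deposited linear scale these are intensities of 140.0 and 139.8 in the lean pool and of 16.4 and 19.2 in the obese pool. The pools do not overlap, and the gap of 2.87 between their nearest arrays was many times the 0.22 that separated the obese arrays. The obese mean of 4.15 ± 0.16 (SD, n = 2 arrays) lay 2.98 below the lean mean of 7.13 ± 0.00, which is 7.89-fold lower, with 7.30 to 8.53 when each lean array was set against each obese array, in 4 pairs. Only 68 of the 14506 genes had a more negative difference. Because the obese level is under the median of all genes and no detection call was used here, Nox4 is not shown to be above background in the obese pool, and its fold has no firm size.

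The sequence upstream of Nox4 is shown because this gene carried the largest difference of the set. It spans 250 bases before and 50 after the annotated start in RefSeq, chr1:150313639-150313938 on the plus strand of build GRCr8. GC bases made up 73.0% of it, against a median of 52.3% over all promoters of that table. The capitals mark the letters GGGCGG, the core bound by Sp1, searched on both strands.
Nox4: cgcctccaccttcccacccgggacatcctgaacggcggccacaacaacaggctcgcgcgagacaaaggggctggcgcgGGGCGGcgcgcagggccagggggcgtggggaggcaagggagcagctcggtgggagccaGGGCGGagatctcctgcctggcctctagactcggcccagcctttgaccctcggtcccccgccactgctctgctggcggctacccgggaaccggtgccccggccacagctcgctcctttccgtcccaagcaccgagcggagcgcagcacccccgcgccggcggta
These letters occurred 2 times here and were held by 34.9% of the 27457 RefSeq promoters of the same length. A match describes the letters and does not show that a factor binds.

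Skeletal muscle transcripts moved with Nox4. Of 18 measured muscle markers 18 passed the 1.5-fold rule as lower in the obese pool, beside 2.43% of all genes. Their median difference was -5.89, and all 18 were among the 68 genes with a more negative difference than Nox4. Acta1, the actin of skeletal muscle fibres, read 13.08 and 13.12 on the lean arrays and 6.89 and 6.87 on the obese arrays. Ckm, the muscle creatine kinase, read 11.66 and 11.77 against 5.53 and 6.12. The summed intensity of the muscle markers, as log2, ran from 15.15 to 15.20 on the lean arrays and from 9.19 to 9.22 on the obese arrays. Muscle is a tissue in which Nox4 is known to be expressed, and its part in the lower Nox4 value was not tested. As there is only 1 lean pool, the comparison cannot be made without it.

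Of the other cells known to express Nox4, stellate and endothelial cells were looked at here through their markers. Of 14 stellate cell markers 3 were lower and 0 higher by the 1.5-fold rule, beside 2.43% and 2.19% of all genes. The marker median was -0.28. Desmin (Des), an intermediate filament protein that muscle also expresses, differed by -4.05, the matrix proteoglycan decorin (Dcn) by -1.90 and the collagen chain Col1a1 by -0.97. Of the other 11 markers none passed the rule. Among these the matrix gene Lum differed by -2.11, but its lean mean of 4.47 was under the median of all genes, so the rule could not call it. Without the level filter the lower count was 4. With the filter kept, it was also 4 with quantile normalisation and with cyclic loess. The same count came without the obese original array and on the technical replicate arrays alone. Differences above 0, up to 0.16, were found for 3 of the 14. The summed log2 level of all 14 was 11.49 to 11.54 on the lean arrays and 10.73 to 10.82 on the obese arrays. Without desmin, an alternative chosen after seeing the data, the sums were 11.18 against 10.69 to 10.80, and the median was -0.22. Whether muscle RNA contributed to the readings of any of these markers in the lean pool was not tested. Endothelial markers had a median of -0.10, with 0 of 8 past the rule in either direction and sums of 11.14 to 11.15 against 10.88 to 11.04. That median was -0.24 when the obese original array was left out and -0.02 when the obese technical replicate array was. The part of these cells in the Nox4 value was not tested. In pooled tissue RNA, fewer cells of a type and less RNA per cell cannot be told apart.

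The genes whose profile over the 4 arrays was most like that of Nox4 were sought among 7252 others with a mean level of at least the median. Likeness was the Euclidean distance between log2 values centred on each gene's own mean. The nearest were Upp2, a uridine phosphorylase of liver, at a distance of 0.18, Cacna2d1, a calcium channel subunit, at 0.19, and Ldb3, a Z-disc protein of muscle, at 0.20. Their differences were -2.88, -3.14 and -2.80. With 4 arrays of 2 pools, such a profile mostly reflects the size of the difference. In the order of protein-coding genes in GRCr8, Nox4 lies between Folh1 and Tyr, which had differences of 0.00 and 0.04. Grm5, the next gene beyond Tyr, had one of 0.07. Or14c39, next beyond Folh1, had one of -0.34. Folh1, Tyr, Grm5 and Or14c39 were all read below the median of all genes in both pools. Ctsc, next beyond Grm5, was read above it, at 11.67 and 11.64 on the lean arrays and 11.57 and 11.55 on the obese arrays, a difference of -0.09.

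Cyba, the membrane partner of both catalytic subunits, read 6.50 and 6.27 on the lean arrays and 6.16 and 6.23 on the obese arrays. The obese arrays were both below the lean arrays, but the nearest ones lay only 0.04 apart while the lean arrays differed by 0.23. Its difference of -0.19 is a fold of 1.14 lower (1.03 to 1.27 over the array pairs). The subunit shared by the Nox4 and Cybb enzymes did not show the large gap of Nox4 itself.

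Cybb, the catalytic subunit of the phagocyte oxidase, read 8.84 and 8.63 on the lean arrays and 8.69 and 8.29 on the obese arrays. The pools overlap: the obese original array lay above the lean technical replicate array. The difference of -0.24 was smaller than the 0.40 between the obese arrays, and over the array pairs it ran from -0.55 to 0.06. Leaving out the obese technical replicate array brought it to -0.05, and leaving out the obese original array to -0.44.

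Ncf1, the organiser among the cytosolic subunits, read 5.29 and 5.57 on the lean arrays and 4.95 and 5.07 on the obese arrays. Both obese arrays were below both lean arrays, and the nearest lay 0.22 apart, less than the 0.28 between the lean arrays. Its mean difference was -0.42, or 1.34-fold lower (1.16 to 1.54), and -0.28 without the lean technical replicate array. Ncf4, a cytosolic subunit that binds membrane phosphoinositides, read 5.39 and 5.53 against 5.40 and 5.32, so the pools overlap, and its difference was -0.10. Ncf1 and Ncf4 did not reach the median level of all genes in either pool. Their mean differences were also smaller than 1.5-fold, so both failed the 1.5-fold rule on level and on size.

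Markers of myeloid cells, in which the Cybb complex is best known, lay on the same side as these genes. Of 19 measured markers, which include Kupffer cell genes, 19 had differences below 0, which 43.1% of all genes had. By the 1.5-fold rule 0 passed in either direction, against 4.61% of all genes. The marker median was -0.24, beside differences of -0.24 for Cybb, -0.19 for Cyba, -0.42 for Ncf1 and -0.10 for Ncf4. Leaving out the obese technical replicate array put the marker median at -0.15 and Cybb at -0.05. Without the obese original array they were at -0.34 and -0.44. The marker median was -0.12 on the original arrays alone, -0.36 on the technical replicate arrays alone and -0.32 with cyclic loess. The summed log2 level of the myeloid markers was 12.28 to 12.36 on the lean arrays and 11.97 to 12.18 on the obese arrays. Neutrophil markers had a median of 0.01, and 11 of the 12 were under the median of all genes in both pools. Their summed log2 level was 8.17 to 8.22 against 8.11 to 8.14. The part of myeloid cells in the lower oxidase readings was not tested.

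**Figure D2:**
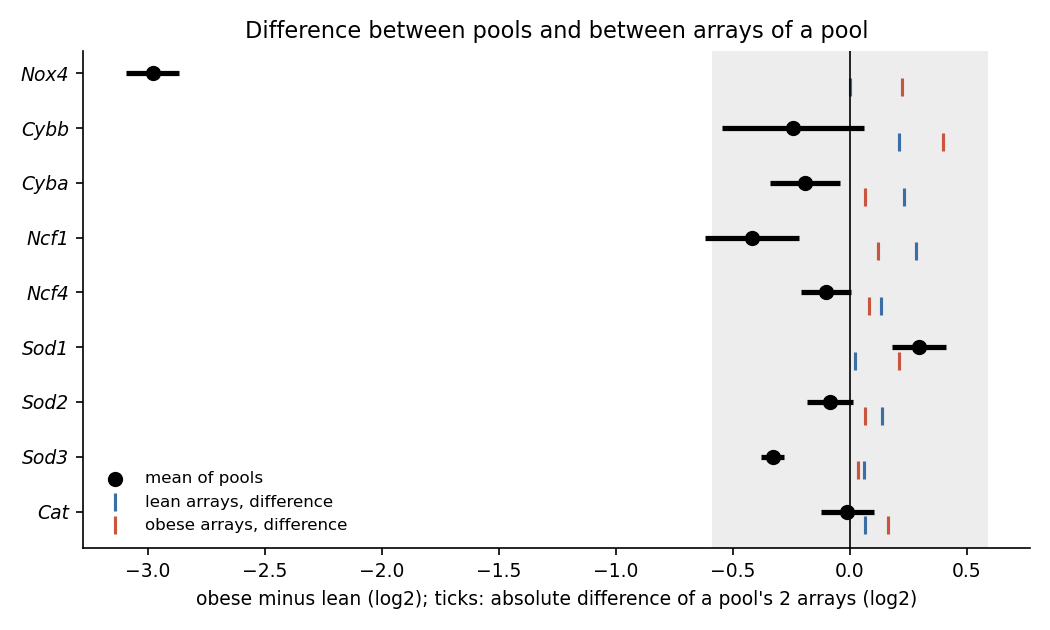
Difference between the pools for each of the 9 genes on the log2 scale (black points), with bars from the lowest to the highest of the 4 array pairs, and the absolute difference between the arrays of each pool (blue ticks lean, red ticks obese). The grey band marks differences smaller than 1.5-fold; Nox4 at -2.98 lies outside it, and the bars of Cybb, Ncf4, Sod2 and Cat cross 0.

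Sod1, the copper-zinc dismutase of the cytosol, was the 1 gene of the 9 with a higher mean in the obese pool. It read 10.60 and 10.62 on the lean arrays and 10.80 and 11.01 on the obese arrays. All obese readings were above all lean readings, with 0.18 between the nearest, close to the 0.21 between the obese arrays. The difference of 0.29 is 1.23-fold higher (1.13 to 1.33) and did not pass the 1.5-fold rule. Over all genes 43.1% of the differences lay below 0. Hepatocyte markers had a median difference of 0.12, and 11 of the 12 lay above 0. Among them Alb, the serum albumin gene, differed by 0.08 and Apoa1, the main apolipoprotein of high-density lipoprotein, by 0.41. Their summed log2 level was 16.29 to 16.34 on the lean arrays and 16.44 on the obese arrays on both arrays; its part in the Sod1 value was not tested.

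The promoter of Sod1 is printed for contrast with that of Nox4, from chr11:42942573-42942872 on the plus strand of GRCr8, with the letters TATAAA in capitals.
Sod1: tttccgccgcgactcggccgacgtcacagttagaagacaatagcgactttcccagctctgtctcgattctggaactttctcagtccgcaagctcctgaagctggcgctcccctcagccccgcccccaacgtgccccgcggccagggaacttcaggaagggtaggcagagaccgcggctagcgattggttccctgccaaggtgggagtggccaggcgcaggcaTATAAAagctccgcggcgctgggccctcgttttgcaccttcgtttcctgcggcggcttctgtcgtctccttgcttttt
Sod1 was the only 1 of the 7 genes of the set matched in the promoter table to hold TATAAA on either strand, as 14.3% of all promoters did. The core GGGCGG was in the promoters of Nox4, Cyba, Ncf1, Sod1 and Sod2, 5 of the 7, and in 34.9% of all promoters. The antioxidant response element, written TGACNNNGC, was in those of Ncf1 and Sod2 and in 12.2% of all promoters. CCAAT occurred in those of Cybb, Sod1 and Cat and in 37.7% of all, and GAGGAA, a core of ETS factors, in those of Cybb and Cat and in 27.5% of all.

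Sod2, the manganese enzyme of mitochondria, read 9.63 and 9.49 on the lean arrays and 9.51 and 9.45 on the obese arrays. The pools overlap, and the difference of -0.09 was less than the 0.14 between the lean arrays. Sod3, the secreted copper-zinc enzyme that binds to the matrix around vessels, read 7.58 and 7.52 against 7.24 and 7.20. Both obese arrays were below both lean arrays, with a gap of 0.28 that exceeded the 0.06 and 0.04 between arrays of a pool. Its difference of -0.33, or 1.26-fold lower (1.22 to 1.30), did not pass the 1.5-fold rule.

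Cat read 12.28 and 12.35 on the lean arrays and 12.38 and 12.22 on the obese arrays. The obese arrays lay on either side of the lean ones, so the pools overlap. Its difference was -0.01, with -0.12 to 0.10 over the array pairs. Catalase transcript therefore differed by less than the spread between arrays.

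Among the other NADPH oxidases and their partners, the dual oxidase gene Duox1 and its maturation factor gene Duoxa1 were higher in the obese pool. Duox1, which encodes an oxidase that makes hydrogen peroxide at epithelial surfaces, read 4.83 and 4.87 on the lean arrays and 5.95 and 5.85 on the obese arrays. The fold was 2.07 higher (1.97 to 2.17), from a lean level under the median of all genes, so it has no firm size. Duoxa1, whose product takes Duox1 protein out of the endoplasmic reticulum, read 6.16 and 5.98 against 7.15 and 6.92, which is 1.95-fold higher (1.69 to 2.25). For each of these genes the pools do not overlap and the gap between pools was larger than that between arrays of a pool. They were the 2 of 13 measured genes on this list that passed the 1.5-fold rule as higher, which 2.19% of all genes did. Lower by the rule were 0, and the list's median was 0.07, or -0.03 without the obese technical replicate array.

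Duox1 and Duoxa1 are next to each other in the GRCr8 gene order. Their neighbour Duox2 had a difference of 0.01, with arrays of both pools interleaved, and Slc28a2, a nucleoside transporter gene further along, one of 0.40. The region before the start of Duoxa1 is printed because this neighbouring pair shared a direction. It lies at chr3:129713957-129714256 on the minus strand of GRCr8, and the letters GGGCGG are in capitals, 4 times, of which 2 overlap.
Duoxa1: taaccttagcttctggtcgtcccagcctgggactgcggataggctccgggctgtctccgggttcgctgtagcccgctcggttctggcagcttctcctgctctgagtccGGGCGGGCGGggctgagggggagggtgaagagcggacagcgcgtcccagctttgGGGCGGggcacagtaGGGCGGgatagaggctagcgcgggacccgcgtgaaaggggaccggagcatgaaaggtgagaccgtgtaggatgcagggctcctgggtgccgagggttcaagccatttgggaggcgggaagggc
GC bases made up 66.7% of this stretch. The RefSeq promoter of Duox1, taken at a start site further along, held 0 matches to GGGCGG and 43.7% GC.

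The small GTPases Rac1 and Rac2, which switch on the phagocyte complex, had lower means in the obese pool. Rac2, the form of blood cells, read 7.44 and 7.43 against 7.05 and 7.06, a difference of -0.38 that did not pass the rule although the arrays of each pool were nearly equal. Rac1, the widespread form, had a difference of -0.10, and Cybc1, a chaperone of the membrane subunits, one of 0.07. Nox1, Nox3, Noxo1, Noxa1 and Duox2, oxidase genes and partners best known outside the liver, were under the median of all genes in both pools. Their differences were between -0.10 and 0.09. Hvcn1 and Duoxa2 were not matched to a probe set with a single symbol and were not analysed here.

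Genes of peroxide reduction showed small differences between the pools. Of 18 measured genes of glutathione peroxidases, peroxiredoxins, thioredoxins and related reductases, 0 passed the 1.5-fold rule in either direction. Their differences ran from -0.44 to 0.33 with a median of 0.07. Arrays of the pools did not overlap for 9 of the 18 with the obese pool higher and for 6 with it lower. Over all genes these shares were 27.5% and 18.5%. Genes that supply or store the copper, iron and manganese of the scavengers had 0 of 15 past the rule, with -0.55 to 0.38 and a median of 0.05. Of these 15, 8 did not overlap with the obese pool higher and 2 with it lower. Against 4.61% of all genes past the rule in either direction, lists of this size would hold few called genes. The counts past the rule therefore do not set the lists apart.

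Among 18 genes, mostly of other enzymes that release hydrogen peroxide, 1 was higher and 2 were lower by the 1.5-fold rule. The shares over all genes were 2.19% and 2.43%. The list's median was 0.04. Ero1a, the oxidase that drives disulphide formation in the endoplasmic reticulum, read 7.55 and 7.52 on the lean arrays and 8.88 and 8.65 on the obese arrays, 2.35-fold higher (2.15 to 2.56). Aox3, an aldehyde oxidase of liver, read 9.83 and 9.85 against 8.45 and 8.24, 2.82-fold lower (2.60 to 3.05). Hao2, a peroxisomal oxidase of hydroxy acids, read 9.86 and 9.90 against 8.86 and 8.69, 2.15-fold lower (2.00 to 2.31). In all of these genes the gap between the pools was wider than that between arrays of a pool. Cyclic loess between the arrays turned the medians of these related lists below 0, to between -0.04 and -0.01.

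**Figure D3:**
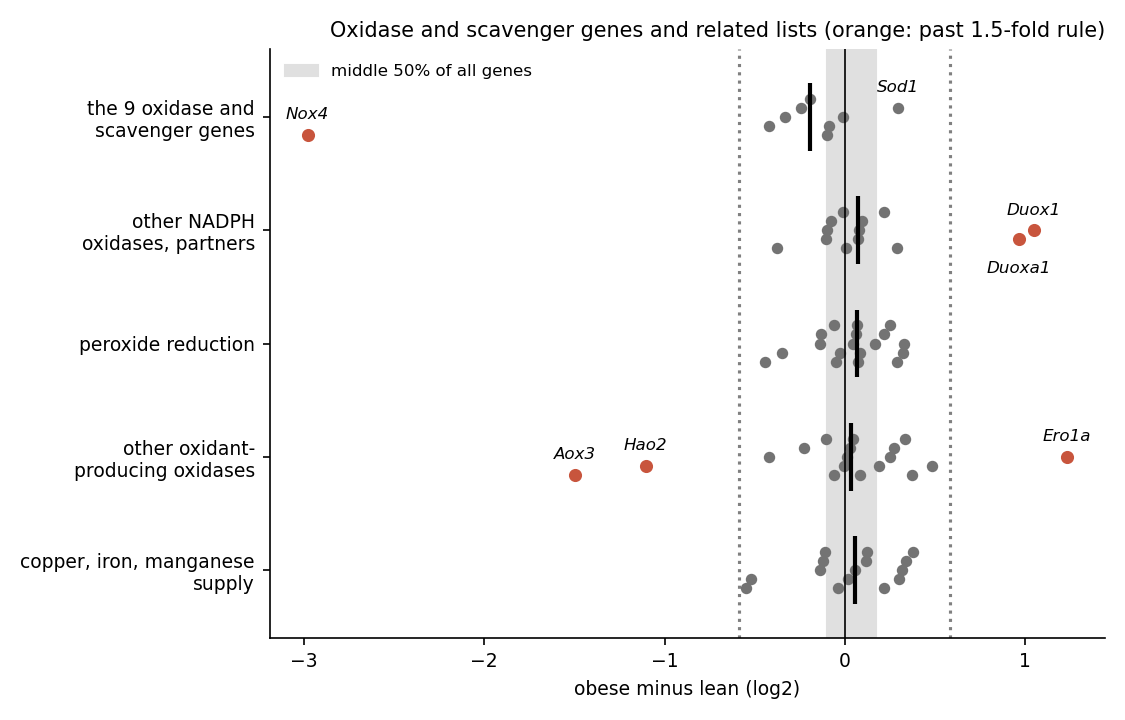
Obese minus lean difference (log2) of each measured gene among the 9 oxidase and scavenger genes and 4 related lists. Black bars are list medians, orange points passed the 1.5-fold rule, dotted lines mark 1.5-fold and the grey band holds the middle 50% of all genes, from -0.10 to 0.18; Nox4 lies at -2.98 and Duox1 at 1.05.

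**Figure D4:**
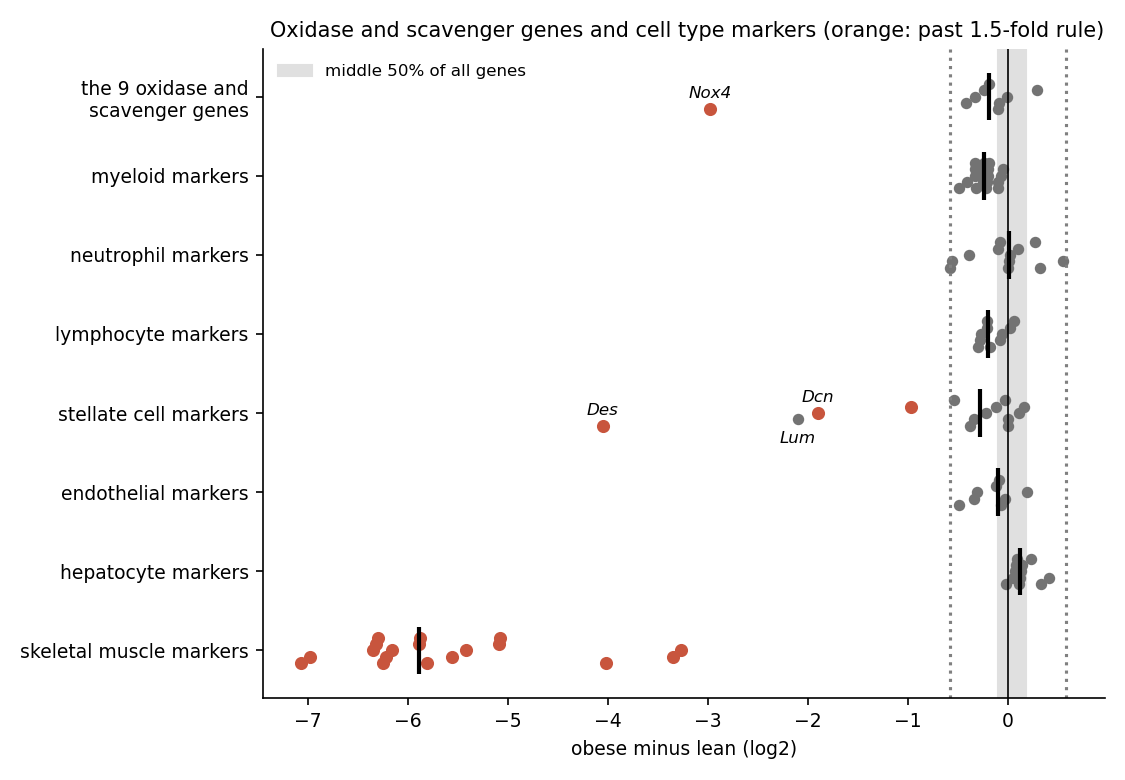
Obese minus lean difference (log2) of the 9 genes and of the measured markers of each cell type, drawn like the plot of related lists. All 18 skeletal muscle markers lie further below 0 than Nox4, and the 19 myeloid markers lie between -0.49 and -0.05. Lum, at -2.11 and labelled here after its value was seen, is a matrix gene whose level lay under the median of all genes.

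Lymphocyte markers had a median of -0.20 with 0 of 10 past the rule. Their summed log2 level was 8.38 to 8.49 on the lean arrays and 8.27 to 8.30 on the obese arrays, and 8 of the 10 were under the median of all genes in both pools. The standard deviation over genes of the difference between arrays of a pool was 0.20 for the lean arrays and 0.27 for the obese arrays.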

How the data were processed

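Liver RNA of 4-month-old WNIN/Ob rats was measured on 4 Affymetrix arrays, 2 of a lean and 2 of an obese pool, grouped by the phenotype in the labels. The authors deposited 1 linear intensity for each probe set and array, and the submitters' processing notes name RMA. That method corrects background, normalises between arrays and summarises probes, and it pulls in dim and bright extremes. Its software version, the build and how log2 values became linear are not given in the sources used here. Values between 2.31 and 14288 show that the scale is linear.

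The log2 of each deposited value was taken, with no further normalisation. Of 29214 probe sets 15310 carried 1 gene symbol, 323 several and 13581 none; the brightest of a gene's probe sets gave 14506 genes. Promoters of 7 of the 9 genes were matched in the RefSeq table of GRCr8. The number of arrays limits precision, and with 1 pool per phenotype no test exists.

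Named genes are the 9 genes. From each related list up to 4 genes past the 1.5-fold rule were named, and from each cell type list up to 3. Any measured gene of the list of other NADPH oxidases and partners could be named. Alb, Apoa1, Acta1, Ckm and the 3 genes nearest to Nox4 were named as well. Folh1, Tyr, Grm5, Or14c39, Ctsc, Slc28a2 and Lum were named after their values were seen. The genes and lists were chosen with earlier results of these data known. Alternatives were quantile normalisation, cyclic loess (limma 3.58.1), median centring, an offset of 16, the mean over probe sets, no level filter, leaving out each array, and the original or technical replicate arrays alone; leaving desmin out of the stellate cell list was added after seeing the data. Python 3.11.15 with pandas 2.3.3 was used.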

Additional observations from a re-analysis of the deposited data

How the results depend on the processing

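The 1.5-fold counts of the 9 genes, 1 lower and 0 higher, were the same under every alternative, and the Nox4 difference ran from -3.09 to -2.21, the latter with an offset of 16. Their median was -0.25 with cyclic loess, and -0.278 to -0.061 when an array was left out. The number of genes without overlap between pools was 8 with cyclic loess, where 48.3% of all genes did not overlap, and 6 to 9 with an array left out, where 67.3% to 79.2% did not. The value of 9 came without the obese original array and that of -0.061 without the obese technical replicate array. Cat took the other sign in 4 of 11 alternatives and Ncf4 in 1, on the original arrays alone; the other 7 genes kept theirs. Among related lists, the higher count of other oxidant-producing oxidases was 2 on the original arrays alone and 1 to 2 with an array left out, the 2 coming without the obese technical replicate array. The lower count of the metal supply list was 1 with cyclic loess, with the mean over probe sets and on the technical replicate arrays alone, and 0 to 1 with an array left out, the 1 coming without the lean original array. That of endothelial markers was 0 to 1, the 1 coming without the obese original array. The lower count of stellate cell markers was 3 or 4 across the alternatives. Over all genes, 553 were 1.5-fold higher without the obese technical replicate array and 615 on the original arrays alone, against 317. The cause of these shifts was not tested. No paired analysis was possible because each phenotype is 1 pool and no test was run; the pools share the array names original and technical replicate but no animals. Readings below the median of all genes may be background.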
